A study of Mus musculus with 16 samples.

Results

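A set of 57 probes was chosen from 25689 regular probes on an Illumina bead array. They were switched on in wild-type mouse testis between P15 and P21 (postnatal days). By P60 their wild-type level had held or climbed further, and their level in testis of Emi2 knockout mice was far below it. On such an array each probe is a short oligonucleotide whose brightness reports the amount of its target transcript. The members were chosen from log2 values that the authors normalized, as means of the 2 arrays of a group. A member rose by at least 3 from P15 to P21 in wild type and was at P60 no more than 0.7 below its wild-type P21 level. Its P60 knockout level was at least 3 below the P60 wild-type level and less than 1.5 above the P21 knockout level. A log2 difference of 1 is a doubling of the signal.

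Whole testes of C57BL/6 mice, either wild type or with Emi2 knocked out (EMI2_ko in the labels), gave total RNA at 4 ages, P15, P21, P30 and P60, which was hybridised as biotin-labelled cRNA. Each of the 8 groups of age and genotype had 2 arrays, 16 in all. The age labels and the design give P15 for the youngest mice where the growth protocol gives p12, and P15 is used here. The knockout allele, any pooling of animals and the origin of the 2 arrays of a group are not given in the sources used here. P-values therefore measure only the spread between arrays, which may be technical.

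Emi2 restrains the anaphase-promoting complex, whose ubiquitin ligase activity lets cells leave mitosis and the meiotic divisions, and it is best known for holding the egg in meiotic arrest. In the juvenile testis the first germ cells pass through meiosis as a nearly synchronous wave, so transcripts of later germ cells appear in whole-testis RNA at later ages. The samples were whole organs, and fewer cells of a type cannot be told apart from less RNA per cell.

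On each array 13167 to 14630 regular probes were detected, that is, had a detection p under 0.05 from the scanner software. Replicate arrays correlated at 0.975 to 0.993 across tested probes, and probes are not independent replicates. The gene names that came with the probes did not go with their levels. Both P60 wild-type arrays detected 36 of 79 probes that carry ribosomal protein names (45.6%, 95% interval 34.3% to 57.2%, Clopper-Pearson, exact), although ribosomal proteins are abundant in all cells. They detected 562 of 1154 probes that carry names of olfactory receptors, the receptors of smell (48.7%, interval 45.8% to 51.6%), and 47.8% of all regular probes. Of 15 probes named for late germ cell genes 7 were detected (46.7%), and 0 were members. For the names of Sertoli cells, Leydig cells and spermatogonia, 2 of 5 probes each were detected (40%). The tissue label could therefore not be checked against its markers. The probe named Fbxo43, the symbol of the Emi2 gene, was lower in knockout at P30 and P60 but not at P15 or P21. Its deposited log2 values, wild type against knockout, were 10.33 and 10.45 against 8.95 and 9.27 at P30. They were 10.57 and 10.49 against 9.53 and 9.61 at P60. At P15 they were 11.24 and 10.96 against 10.96 and 11.23, and at P21 9.31 and 9.84 against 9.33 and 9.79. The probe checks no genotype label while the names are not borne out. Each member is accordingly called by its identifier as a row label, without a gene or a role.

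The choice of members ran through 4 conditions, which are described with no test. In wild type, 280 regular probes rose by 3 or more from P15 to P21, and 270 of these held at P60. Of the 270, 60 were at least 3 lower in P60 knockout and 57 of those also met the condition on late rise in knockout. Another 145 of the 270 differed by less than 1 between the P60 genotypes, and these are called the kept probes. The remaining 65 met neither limit and are called the probes between, a name that does not exclude a higher level in knockout. Among the members the wild-type rise from P15 to P21 was 3.01 to 6.36 with a median of 3.47. The wild-type change from P21 to P60 was -0.18 to 4.24 with a median of 2.14, so most members climbed further after P21. The P60 difference, knockout minus wild type, was -7.35 to -3.02 with a median of -5.27.

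On the limit for the wild-type rise, ILMN_1256378 entered with 3.01 and ILMN_2796834 stayed outside with 2.96. On the rise alone 377 probes failed. On the limit for the P60 loss, ILMN_1224996 entered with -3.02 and ILMN_2598083 stayed outside with -2.91. On the loss alone 200 probes failed. ILMN_2598083 had P60 knockout values of 11.07 and 11.07 against 14.01 and 13.96 in wild type, and ILMN_2796834 had 7.15 and 7.10 against 12.97 and 12.76. ILMN_2450460 entered with a P60 minus P21 knockout difference of 1.46. Only 3 probes failed on late rise alone, ILMN_3152486 (1.52), ILMN_1252006 (1.57) and ILMN_1231686 (1.80), the last 2 named after their values were seen. No probe failed on the P60 hold alone, and the member nearest to that limit was ILMN_2928453, at -0.18.

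In wild type, the median deposited log2 level of the 57 members was 7.22 at P15 (lowest 7.02, highest 8.67), 10.84 at P21 (10.10 to 13.79), 12.83 at P30 (10.83 to 15.07) and 13.02 at P60 (11.02 to 15.24). In knockout it was 7.21 at P15 (6.94 to 8.65), 7.32 at P21 (at most 10.53), 7.77 at P30 (7.05 to 11.64) and 7.70 at P60 (6.98 to 11.70). The median thus climbed at each wild-type age and stayed under 8 in knockout. The deposited values carry no background correction, and control rows of the array had a median of 7.15 on the same scale (95th percentile 7.41). At P15 the medians of both genotypes were near that level, but some members lay above it. Both P15 wild-type arrays detected 16 members, and the highest P15 means were 8.67 in wild type and 8.65 in knockout. The difference of the P15 means, knockout minus wild type, was between -0.28 and 0.15 for every member. At P21, P30 and P60 all 57 members were detected on both wild-type arrays, against 52.5%, 49.6% and 47.8% of regular probes. At P21 and P60 this largely followed from the levels that the rule required. In knockout, both arrays detected 17 members at P15 and 26 at P21, which grew to 43 at P30 with 41 at P60. The shares of regular probes detected on both knockout arrays were 51.9%, 51.4%, 49.7% and 49.1% at these ages. The kept probes had median levels of 7.63, 12.04, 12.35 and 12.29 in wild type and 7.55, 11.44, 12.13 and 12.14 in knockout over the same 4 ages.

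The P30 arrays of both genotypes and the P15 knockout arrays took no part in the choice of members. They answer whether the members were also lower in knockout than in wild type at P30, an age between those the rule used. All 57 members were lower at P30 in knockout than in wild type, with limma over all 16 arrays and Benjamini-Hochberg adjusted p-values of 1.62e-11 to 0.000114 over 17355 tested probes. Of all tested probes 10.4% were lower (1808) and 13.1% were higher (2270) in this comparison. The count of higher probes over all tested was 754 without P30 wild-type replicate 2, 1087 without P30 knockout replicate 1 and 1252 without P30 knockout replicate 2, each below the count of lower ones (1326, 1503 and 1468), while the 57 members were lower in each of these fits. On the background-corrected log2 scale of the model, the members' differences ran from -9.45 to -2.54 with a median of -6.28 and standard errors of 0.214 to 0.726. The median over all tested probes was 0.26. The difference was at least 16-fold (4 on the log2 scale) for 49 members.

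On the deposited values the P30 differences ran from -7.59 to -2.49 with a median of -4.81. For 54 of 57 members they were at least 3 in size, a limit that 1.91% of all tested probes passed. For each of the 57 members both P30 wild-type arrays lay above both P30 knockout arrays, which held for 19.4% of tested probes. By the model, 4 of the 145 kept probes were lower and 1 was higher at P30, with a median difference on the model scale of -0.18 (-1.37 to 0.95). Of the 65 probes between, 41 were lower and 3 higher, with a median of -1.22 on that scale, on which the members' median was -6.28. Members, kept probes and probes between were told apart by their P60 differences. Their median levels at P30 lay close to those at P60, so the contrast among them partly restates the choice.

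In what follows, values of single arrays are deposited log2 values. Differences with an adjusted p, fitted folds and bounds are on the background-corrected scale of the model unless stated otherwise. The members' median P30 difference was -6.28 on that scale, against -4.81 on the deposited values. ILMN_2703566 had the most negative P30 difference of the members in the model. Its deposited log2 values in wild type were 7.37 and 7.16 at P15, 9.98 and 12.07 at P21, 15.09 and 15.04 at P30, and 14.83 and 14.75 at P60. In knockout they were 7.20 and 7.20 (P15), 7.18 and 7.18 (P21), 7.23 and 7.73 (P30), and 8.09 and 7.24 (P60). Wild-type arrays from P21 on were all above every knockout array, and the P21 wild-type arrays lay 2.10 apart. At P60 the rule required such a gap between the means of every member. At P30 the model difference was -9.45 (SE 0.73, limma adjusted p = 1.58e-07), a fitted 701-fold, with the probe detected on 1 of 2 knockout arrays.

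ILMN_2657376 was followed at the same 4 ages. Its wild-type values were 7.62 and 7.57 at P15, 10.09 and 11.43 at P21, 14.96 and 15.07 at P30, and 15.03 and 14.88 at P60. Its knockout values were 7.57 and 7.65, 7.52 and 7.39, 7.59 and 7.61, and 7.71 and 7.49. All knockout arrays lay between 7.39 and 7.71, and the wild-type arrays were above that range from P21 on. At P30 the difference was -8.95 (SE 0.37, limma adjusted p = 2.3e-10), a fitted 493-fold.

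ILMN_2613841 rose to 13.20 and 13.87 at P30 and 13.95 and 13.99 at P60 in wild type. In knockout it was at 7.53 and 7.51 at P15, 7.14 and 7.31 at P21, 7.37 and 7.36 at P30, and 7.25 and 7.26 at P60. In knockout it was detected on both P15 arrays, 1 P30 array and no P21 or P60 array. Its P30 difference was -8.25 (SE 0.24, limma adjusted p = 1.62e-11). ILMN_2706964 had P30 values of 13.64 and 14.34 in wild type against 7.46 and 7.64 in knockout, a difference of -8.08 (SE 0.32, limma adjusted p = 1.9e-10).

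For 8 members the signal was not well above background on either P30 knockout array, so only a bound could be given, against the lowest signal of a detected probe. On the background-corrected scale of the model these were at least 44.4-fold to at least 340-fold lower, with a median of 117.2. ILMN_2677792 gave the upper end, with 13.55 and 13.81 in wild type against 7.12 and 7.35 in knockout (limma adjusted p = 1.62e-11). ILMN_2741538 gave the lower end, with 10.37 and 11.29 against 7.05 and 7.04 (limma adjusted p = 3.83e-10). On the deposited values, without background correction, these 2 probes differed by only -6.44 and -3.78. ILMN_1256378 was at least 203-fold lower and ILMN_1218525 at least 120.2-fold lower.

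ILMN_2630078 was not well above background on any knockout array of any age. It measured 7.15 and 7.14 at P15, 7.05 and 7.19 at P21, 7.11 and 7.15 at P30, and 7.13 and 7.19 at P60 there. In wild type it measured 7.03 and 7.27, 11.70 and 10.85, 11.66 and 12.00, and 11.90 and 12.20. At P30 its knockout level was lower by at least 92.1-fold on the model scale (limma adjusted p = 1.55e-10), and by 4.70 in log2 on the deposited values. For the 49 members detected on at least 1 P30 knockout array, the fitted folds on the model scale were 5.80 to 701, with a median of 65.7.

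The members differed in when wild type reached its final level. From P21 to P30 the wild-type mean changed by -0.06 to 4.25 with a median of 1.93. It gained at least 2 in 26 members, between 1 and 2 in 12, and less than 1 in 19. From P30 to P60 the change was under 1 in size for all 57 (-0.28 to 0.95, median 0.32). The kept probes gained a median of 0.26 from P21 to P30, none of the 145 gained 2, and 1 of the 65 between did. These steps start from P21 wild-type arrays that the rule used, and they are given with no test.

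The late risers included ILMN_2657376 (4.25), ILMN_2703566 (4.04) and ILMN_2775300 (3.80). ILMN_2775300 went from 10.98 and 10.68 at P21 to 14.25 and 15.01 at P30 in wild type, and was at 8.32 and 8.45 in P30 knockout. Its P30 difference was -6.92 (SE 0.31, limma adjusted p = 4.13e-10). ILMN_2450460 went from 11.44 and 11.04 at P21 to 14.01 and 14.96 at P30 and 15.24 and 15.24 at P60, so its P30 arrays lay between both neighbouring ages.

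Other members showed little wild-type change after P21. ILMN_1225334, named after its values were seen, measured 13.35 and 12.76 at P21, 13.19 and 13.05 at P30, and 12.90 and 13.14 at P60. In knockout it was at 7.61 and 7.41 at P15, 7.78 and 7.50 at P21, 7.52 and 7.64 at P30, and 7.41 and 7.52 at P60. The wild-type arrays of P21, P30 and P60 overlapped, and the highest knockout array of any age was at 7.78. Its P30 difference was -7.11 (SE 0.31, limma adjusted p = 3.76e-10), a fitted 138-fold.

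ILMN_2928453 was the member with the lowest P21 to P30 step, at -0.06. It measured 12.64 and 12.02 at P21, 12.40 and 12.15 at P30 and 12.06 and 12.26 at P60 in wild type, against 8.11 and 8.13 in P30 knockout. Its difference there was -5.00 (SE 0.35, limma adjusted p = 4.85e-08). The P30 knockout deficit, on deposited values, had a median of -5.67 (-7.59 to -2.49) among the 26 members with a step of at least 2, of -4.70 (-5.20 to -3.56) among the 12, and of -3.82 (-5.54 to -2.85) among the 19. Step and deficit share the P30 wild-type arrays, so this order is not independent of the grouping.

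The members were also not alike in what was left in knockout. Their P30 knockout means lay under 8 in 36 of 57 cases and at 10 or more in 2. Within knockout, 37 of 57 members were higher at P30 than at P15 and 0 were lower, by limma with Benjamini-Hochberg adjustment over all tested probes (41 at an unadjusted p under 0.05). Of all tested probes, 19% were higher and 27.3% lower in that comparison. Most members had little room to fall. The rule favoured low P15 levels in wild type, and P15 knockout lay close to them, at a median of 7.21 against 7.15 in control rows. P15 knockout arrays detected none of 37 members, a separate count from the 37 called higher. The lack of lower members was therefore largely set by the choice. The members' differences on the model scale ran from -0.56 to 4.96 with a median of 1.53, against -0.12 over all tested probes. In the same comparison all 145 kept probes were higher, with a median of 5.81, and so were all 65 between, with a median of 5.30. This contrast with the members largely restates the choice. The kept probes had to end near wild type at P60 in knockout, and the members at least 3 below it. Both P30 arrays lay above both P15 arrays in knockout for 47 members and for 31.3% of tested probes.

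The largest rises in knockout were among those 37. ILMN_2645155 measured 7.24 and 7.19 at P15, 10.29 and 9.08 at P21, 9.98 and 9.85 at P30, and 9.38 and 9.82 at P60 in knockout. In wild type it measured 7.15 and 7.38, 12.81 and 11.96, 12.68 and 12.85, and 12.77 and 13.07. Knockout rose by P21 and lay below every wild-type array from P21 on. From P15 to P30 in knockout it was at least 23.9-fold higher on the model scale (limma adjusted p = 5.18e-07), a rise of 2.70 on the deposited values. The fold is a bound since its P15 knockout arrays were not well above background. At P30 it was a fitted 8.15-fold below wild type on the model scale (limma adjusted p = 7.22e-05).

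ILMN_1224996 had the smallest P30 deficit of the members in the model. In knockout it went from 7.91 and 7.85 at P15 to 10.96 and 10.11 at P21, 11.66 and 11.61 at P30, and 11.69 and 11.71 at P60. In wild type it went from 8.27 and 7.91 to 11.73 and 11.31, 13.63 and 14.63, and 14.90 and 14.55. Knockout rose by 4.82 between P15 and P30 on the model scale (limma adjusted p = 1.87e-07), and still lay 2.54 below wild type at P30 (SE 0.36, limma adjusted p = 0.000114). At P21 the difference of its means, knockout minus wild type, was -0.99, and both wild-type arrays lay above both knockout arrays. Its P60 knockout mean of 11.70 lay above its P21 wild-type mean of 11.52. It met the rule because its wild-type mean had reached 14.72 by P60.

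ILMN_1217767 rose to 9.97 and 9.87 at P30 in knockout against 13.79 and 14.00 in wild type. It rose by 4.34 from P15 in knockout on the model scale (limma adjusted p = 1.43e-06) and by 2.52 on the deposited values. At P30 it lay a fitted 18.0-fold below wild type. ILMN_1257117 went from 7.14 and 7.19 at P15 to 9.10 and 9.05 at P30 in knockout, a rise of 1.91 on the deposited values. On the model scale it was at least 11.7-fold higher (limma adjusted p = 1.02e-06). Its wild-type arrays at P30 were at 12.23 and 12.64. ILMN_2854418 reached 10.20 and 10.06 in P30 knockout against 14.28 and 14.97 in wild type, a rise from P15 of 3.84 on the model scale (limma adjusted p = 3.26e-07). ILMN_2450460 reached 8.70 and 8.94 at P30 and 9.24 and 9.13 at P60 in knockout. At P30 it was at least 9.19-fold above P15 on the model scale (limma adjusted p = 6.92e-07), a rise of 1.67 on the deposited values.

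Further members with small P30 deficits differed less between P15 and P30 in knockout. ILMN_1255796 measured 8.71 and 8.58 at P15 and 9.20 and 9.05 at P30 in knockout, against 12.34 and 12.38 in P30 wild type, a difference of -3.57 (SE 0.22, limma adjusted p = 1.7e-08). ILMN_1217406 measured 8.78 and 8.24 at P15 and 9.35 and 8.82 at P30 in knockout, against 12.37 and 12.22 in P30 wild type, a difference of -3.56 (SE 0.33, limma adjusted p = 1.39e-06). From P15 to P30 in knockout ILMN_1255796 rose by 0.66 (adjusted p = 0.0259), a call lost when either P15 knockout array or P30 knockout replicate 1 was left out (adjusted p = 0.0544, 0.137 and 0.143) and under scaling to the 75th percentile (adjusted p = 0.0638). For ILMN_1217406 that difference was 0.82 (adjusted p = 0.0559), and it passed without P15 knockout replicate 1 (adjusted p = 0.0198), either P15 wild-type array (0.0436 and 0.0434) or P30 knockout replicate 2 (0.0285).

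Members with high wild-type levels at P60 differed widely in knockout. ILMN_3110679 measured 15.14 and 15.12 at P60 and 13.82 and 14.83 at P30 in wild type, against 7.70 and 8.20 in P30 knockout. Its P30 difference was -7.44 (SE 0.35, limma adjusted p = 7.82e-10), and it rose by 1.65 from P15 to P30 in knockout (adjusted p = 0.0016), a call lost on the deposited values (0.60, adjusted p = 0.0794). ILMN_1242767 measured 14.92 and 14.90 at P60 and 13.32 and 14.59 at P30 in wild type, against 7.93 and 8.10 in P30 knockout. Its P30 difference was -6.92 (SE 0.42, limma adjusted p = 1.14e-08). In knockout it was at 8.12 and 7.89 at P15, and its P30 minus P15 difference was 0.01 (adjusted p = 0.983). ILMN_3163567, with one of the 3 highest P60 knockout means, had knockout arrays at 9.53 and 9.33 at P30 and 9.22 and 10.11 at P60, against 13.30 and 13.39 and 13.31 and 13.21 in wild type. Its knockout rise from P15 to P30 was 3.11 on the model scale (limma adjusted p = 1.1e-05) and 1.84 on the deposited values. Its P30 deficit was a fitted 18.2-fold (limma adjusted p = 4.45e-07).

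At the other end, 20 members did not pass the threshold for a P30 against P15 difference in knockout. Their differences were -0.56 to 0.89 with a median of 0.24, and 6 were negative. The most negative were ILMN_2613841 at -0.56 (limma adjusted p = 0.0689), ILMN_2677494 at -0.51 (adjusted p = 0.178), ILMN_1245872 at -0.46 (adjusted p = 0.175) and ILMN_2741538 at -0.06 (adjusted p = 0.896). ILMN_2703566 was at 0.89 (adjusted p = 0.344) and ILMN_2657376 at -0.03 (adjusted p = 0.956). Missing the threshold does not show that their level stayed the same. ILMN_2613841 passed as lower when either P30 wild-type array was left out (adjusted p = 0.0346 and 0.0336), and ILMN_2677494 did at -0.94 without P30 knockout replicate 1 (adjusted p = 0.0312). ILMN_2677792 passed as higher, at 0.79, without that array (adjusted p = 0.0274). Of the 37 members past it, 25 were detected on no P15 knockout array, so their fitted rises are no bounds. Past the threshold were 17 of the 26 members with a wild-type step of at least 2, 9 of the 12 with a step of 1 to 2 and 11 of the 19 with a step under 1.

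The knockout level at P30 was close to that at P60. The P60 minus P30 difference in knockout was -0.47 to 0.68 with a median of -0.00818 on deposited values. The difference between genotypes at P21, whose arrays of both genotypes entered the rule, was -5.42 to -0.99 with a median of -3.39. For the kept probes, chosen for a small P60 difference, the median was -0.44, and both are given as a description. Across the 57 members the P30 and P60 genotype differences had a Pearson correlation of 0.967, given as a description, since members share arrays and the rule fixed the P60 side.

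Replicate arrays differed in a shared direction at 2 ages. At P21 in wild type, replicate 1 was above replicate 2 in 53 of 57 members, with a median gap of 0.49, against 50.1% of tested probes. The exceptions were ILMN_2703566 (9.98 and 12.07), ILMN_2657376 (10.09 and 11.43), ILMN_2731024 (10.01 and 10.27) and ILMN_2646105 (10.49 and 10.67). At P30 in wild type, replicate 2 was above replicate 1 in 50 of 57 members with a median gap, replicate 1 minus 2, of -0.40, while replicate 1 was the higher in 55.9% of tested probes. At P60 replicate 1 was the higher in 29 of 57, with a median gap of 0.02. The part of these gaps in the P30 result was not tested beyond leaving arrays out: all 57 members remained lower in knockout without either P30 wild-type array.

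The P21 gap also ran through the probes that did not stay low. Replicate 1 was higher at P21 in 140 of the 145 kept probes in wild type and in 143 in knockout, with medians of 0.50 and 0.86. In P21 knockout, replicate 1 was the higher in 49.4% of tested probes and in 32 of all 57 members, whose median gap was 0.05. Of the 26 members detected on both P21 knockout arrays, 21 were higher on replicate 1, with a median of 0.28. Without P21 wild-type replicate 1 the rule chose 46 probes, and without replicate 2 it chose 66, of which 54 were among the 57.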

How the data were processed

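The deposited table of signal intensity had no background correction or normalization, per the file headers, and a detection p-value stood beside each deposited intensity. That column rose with signal in regular probes, and it was taken as 1 minus the p-value. The log2 values were normalized by the authors; the deposited log2 values were recomputed by quantile normalization over all 26511 rows to within 0.00276, which settles scale and centring (column medians 7.39). Limma is named, with no version, in the submitters' processing notes. All columns matched a sample (0 unmatched). By identifier range, 822 control rows were left out.

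Intensities were background-corrected (normexp from detection p-values, offset 16), log2 transformed and quantile normalized between arrays. The test covered 17355 probes detected on at least 2 arrays, all 57 members among them. Limma 3.58.1 in R 4.3.3 fitted 8 group means over all 16 arrays (8 residual, 5.81 prior degrees of freedom), with Benjamini-Hochberg adjustment at 0.05. The code was tested on simulated data. The number of arrays limits the precision. Median intensities per array were 132.5 to 213.7.

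A detection p under 0.05 is called detected. For a probe not detected on either array of a group, that group's mean was replaced per array by the higher of its own signal and the lowest detected signal. Alternatives covered background, scaling, filter, samples, a replicate block and the rule's thresholds.

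Probes named were the 8 members with the highest P60 wild-type mean, the 5 most and 5 least negative P30 genotype differences, the 4 most positive and 4 most negative P30 minus P15 knockout differences, the 3 highest and 3 lowest P60 knockout means, and those nearest each threshold. Probes named for their wild-type step after P21 or their replicate gap were chosen after their values were seen. The members, the lists and the kept probes were chosen with earlier results of these data known.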

Additional observations from a re-analysis of the deposited data

How the results depend on the processing

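All 57 members stayed lower in knockout at P30 under each of the alternatives run, leave-one-out fits included (57 in every fit). The count over all probes at P30 (4078: 1808 lower, 2270 higher) moved more. It was 2490 (1519 lower, 971 higher) with the 4 compared arrays alone, and 2080 to 4395 with 1 array left out. The lowest count was without P30 wild-type replicate 2 (754 higher, 1326 lower). Without P30 knockout replicate 1 it was 2590 (1087 higher), and without P30 knockout replicate 2 it was 2720 (1252 higher). The higher probes ranged from 754 to 2522 and the lower from 1326 to 1888. The cause was not tested. P30 minus P15 in knockout gave 8029 calls and 5925 to 8182 with 1 array left out. Members higher there, 37, were 30 to 39 over the alternatives, with 30 on the deposited values. The rule chose 188 probes on background-corrected values (45 of the 57 shared), 155 with thresholds of 2, 12 with thresholds of 4, and 46 to 66 with 1 array left out. The deviations of same-numbered arrays of both genotypes correlated at 0.122 at P30, 0.478 at P21, 0.160 at P60 and 0.0477 at P15, and those of the P30 and P15 knockout arrays at -0.0407. Not every pair was over 0.1 and the labels name no shared litter or day, so the numbers were not taken to pair the samples. This cut over all ages does not address P21 alone, and what the same-numbered P21 arrays share was not tested. With the replicate block the counts were 4989 and 8022, all 57 members stayed lower, and ILMN_1217406 passed in P30 minus P15 in knockout (adjusted p = 0.0449). Recomputed values of the named probes kept direction and side of the threshold 1225 times, passed it newly 9 times, lost it 8 times and never reversed. Every such change was in P30 minus P15 in knockout, among them ILMN_2706964 (adjusted p = 0.0148 against 0.248 on deposited values) and ILMN_3110679 (0.0016 against 0.0794).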
